A study of Mus musculus with 20 samples.

Results

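Immediate early genes are the genes that a neuron or a glial cell transcribes within minutes of a stimulus, without first making new protein. Calcium and kinase signals that follow synaptic activity reach the transcription factors CREB and SRF, which are already bound to DNA, and these switch the genes on. Most of the products are transcription factors that act on later genes, while Arc acts at the synapse itself. In brain tissue these transcripts are used as a readout of recent neuronal activity, and they are short-lived.

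The 10 genes described here, *Fos*, *Fosb*, *Junb*, *Arc*, *Egr1*, *Egr2*, *Npas4*, *Nr4a1*, *Ier2* and *Ier5*, were named as a list and matched by symbol to 10 of the 46078 Ensembl gene rows of the count tables. All 10 passed the filter on low counts in each of the 5 comparisons. They were measured by bulk RNA sequencing of brain tissue from 18-month-old wild-type C57BL/6J mice (males, per the study's methods), taken 7 weeks after DH stroke, in which the distal middle cerebral artery is occluded and the mouse is then kept in low oxygen. Every mouse had a stroke, so no group is an uninjured control. From 1 week after stroke mice were injected under the skin 3 times per week for 6 weeks, with PBS (vehicle) or with 4 g/kg HPBCD (hydroxypropyl-β-cyclodextrin), a cyclic sugar that takes up cholesterol. The peri-infarct region was cut out after removal of the infarct, and the matching region of the other hemisphere served as contralateral tissue. There were 5 libraries for each region in each treatment, 20 in all, and libraries of both regions that bear one number within a treatment have a common identifier, taken here as the mouse. Nothing in the count tables identifies the treatment, so the names vehicle and HPBCD follow the sample labels throughout, and a doubt about them could not be settled. Genes that the study's text names as lower or higher after HPBCD in the peri-infarct region, a choice made on these samples, run the opposite way under these labels. Of those named as lower, 22 of 22 tested were higher in libraries labelled HPBCD (14 called), and of those named as higher, 10 of 10 were lower (4 called). If the labels were exchanged, every direction between treatments and the sign of every interaction given here would turn, and the region results would change names, while the region directions themselves would stand.

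In the GENCODE annotation of GRCm38, the genes are *Fos* (ENSMUSG00000021250) at chr12:85473890-85477273, *Fosb* (ENSMUSG00000003545) at chr7:19302696-19310051, *Junb* (ENSMUSG00000052837) at chr8:84974484-84978718, *Arc* (ENSMUSG00000022602) at chr15:74669083-74672570, *Egr1* (ENSMUSG00000038418) on chromosome 18. The others are *Egr2* (ENSMUSG00000037868) at chr10:67535475-67542188, *Npas4* (ENSMUSG00000045903) at chr19:4984355-4990316, *Nr4a1* (ENSMUSG00000023034) at chr15:101254269-101274795, *Ier2* (ENSMUSG00000053560) at chr8:84661331-84662852 and *Ier5* (ENSMUSG00000056708) at chr1:155096361-155099636. The values count reads over exons of each gene, coding and untranslated parts together, so they do not separate isoforms.

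Gene counts per library were 14445021 to 22171627 with a median of 19008532. Levels are given as CPM, in which counts are scaled to the library total with TMM factors over the 20 libraries, and 3 counts corresponded to 0.126 to 0.228 CPM. The lowest value of any member in any library was 13 counts, for *Egr2*. The pan-neuronal list (10 genes) had a summed level of 10610 to 12677 CPM in vehicle contralateral, 6659 to 9544 CPM in vehicle peri-infarct, 12765 to 13784 CPM in HPBCD contralateral and 3647 to 6877 CPM in HPBCD peri-infarct libraries. The striatal list (10 genes) summed to 3956 CPM in vehicle contralateral replicate 1 and to 233 to 316 CPM in the other 4 libraries of that group. The same sum was 240 to 290 CPM in HPBCD contralateral libraries, and 392 to 2241 CPM with vehicle and 789 to 2315 CPM with HPBCD in peri-infarct libraries. The hippocampal list (6 genes) summed to 132 CPM in vehicle peri-infarct replicate 1 and 223 CPM in HPBCD peri-infarct replicate 2, against 33.6 to 43.3 CPM in the other 18 libraries. No marker of these 3 lists was at 0 in every library of a group. Counts led with below were therefore also made without the 1 striatal and 2 hippocampal libraries that stood apart, 3 in all. Those fits kept the other peri-infarct libraries, whose striatal sums lay above those of the other contralateral libraries. In bulk tissue, fewer cells of a type and less RNA per cell cannot be told apart.

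RefSeq promoter windows (GRCm38.p6, 250 bases before to 50 after the start site) are described here for 7 of the 10 genes. These are *Fos*, *Fosb*, *Junb*, *Egr2*, *Npas4*, *Nr4a1* and *Ier5*. The windows were searched on both strands for the binding sequences of factors that switch immediate early genes on, and of the factors that the genes themselves encode. The core of the CRE, the site of CREB (TGACG), was present in 6 of the 7 windows, all except that of *Ier5*, and in 20.8% of the 32851 windows of the table. *Nr4a1* had 4 copies, *Fos*, *Egr2* and *Npas4* 2 each, and *Fosb* and *Junb* 1 each. The CArG box of SRF was found in the *Egr2* window and in 1.63% of all windows. The EGR site (GCGNGGGCG) was found in the *Fosb* and *Nr4a1* windows and in 5.55% of all windows, and the TATA box (TATAAA) in the *Fos* and *Junb* windows and in 13.6% of all windows. These TATAAA letters began at -33 from the start site in *Fos* and at 0 in *Junb*. The full CRE (TGACGTCA, which contains the core), the AP-1 site (TGANTCA) and the NR4A element (AAAGGTCA) were in none of the 7, and in 1.79%, 7.81% and 1.51% of all windows. A match describes the letters in the window and is not a measured site. Only these forms of the motifs were searched for, so other forms, such as other TATA-like letters, were not counted. Sites outside the windows were not searched for, so a motif missing from a window may lie farther away. For *Egr2*, which has 5 windows in the table, the one nearest the start of the first listed GENCODE transcript was used.

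The 150 bases before the start site are shown for 4 genes, chosen because their levels differed in pattern in what follows. *Fos* and *Nr4a1* varied more within groups than the median of 11794 genes (SD of group-centred log2 CPM 0.77 and 0.49, against 0.19). *Egr2*, which varied most (0.84), was the member that was higher in the peri-infarct region, and *Ier5* was the steadiest. Each is written 5′ to 3′ on the gene's strand, with matches to the motifs above in capitals. None of these bases lies in an annotated exon of the members.
Fos (chr12:85473740-85473889, plus strand): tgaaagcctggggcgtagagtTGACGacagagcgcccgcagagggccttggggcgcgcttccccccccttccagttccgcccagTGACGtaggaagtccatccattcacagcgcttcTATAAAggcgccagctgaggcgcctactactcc
Egr2 (chr10:67537719-67537868, plus strand): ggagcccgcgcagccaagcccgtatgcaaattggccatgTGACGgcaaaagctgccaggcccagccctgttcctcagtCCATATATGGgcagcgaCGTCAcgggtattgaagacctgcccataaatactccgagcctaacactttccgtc
Nr4a1 (chr15:101266696-101266845, plus strand): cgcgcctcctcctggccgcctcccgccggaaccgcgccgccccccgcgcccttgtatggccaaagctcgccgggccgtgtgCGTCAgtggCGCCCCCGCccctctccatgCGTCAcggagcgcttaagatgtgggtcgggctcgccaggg
Ier5 (chr1:155099637-155099786, minus strand): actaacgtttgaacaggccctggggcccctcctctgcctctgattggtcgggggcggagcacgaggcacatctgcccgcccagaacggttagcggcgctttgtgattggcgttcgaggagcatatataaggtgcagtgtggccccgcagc

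Within a group, levels differed widely between members. Levels of different genes are compared here per kilobase of merged exons. In vehicle contralateral libraries *Arc*, whose product moves glutamate receptors out of the synapse, was highest at 100.3 ± 46.3 CPM per kb (SD, n = 5). It was followed by the zinc finger factor *Egr1* at 83.9 ± 23.98, the AP-1 subunit *Junb* at 70.5 ± 17.9 and *Ier5*, a regulator of the heat shock factor HSF1, at 48.5 ± 4.80 CPM per kb. Ranges of these neighbours overlapped, whereas the 5 libraries of *Ier5* did not overlap those of the next gene, the orphan nuclear receptor *Nr4a1*, at 25.7 ± 8.44 CPM per kb. Below it came *Ier2* at 13.8 ± 4.77, the AP-1 subunit *Fos* at 13.04 ± 6.90 and the neuron-specific factor *Npas4* at 4.99 ± 2.02 CPM per kb. *Egr2* and *Fosb* were lowest, at 2.21 ± 1.49 and 2.21 ± 0.616 CPM per kb, and neighbours from *Nr4a1* down overlapped. In HPBCD peri-infarct libraries *Junb* was first at 51.6 ± 15.7, ahead of *Arc* at 35.8 ± 18.7 and *Egr1* at 33.5 ± 12.1 CPM per kb, with overlapping ranges, and *Fosb* was last at 1.52 ± 0.338 CPM per kb.

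**Figure D1:**
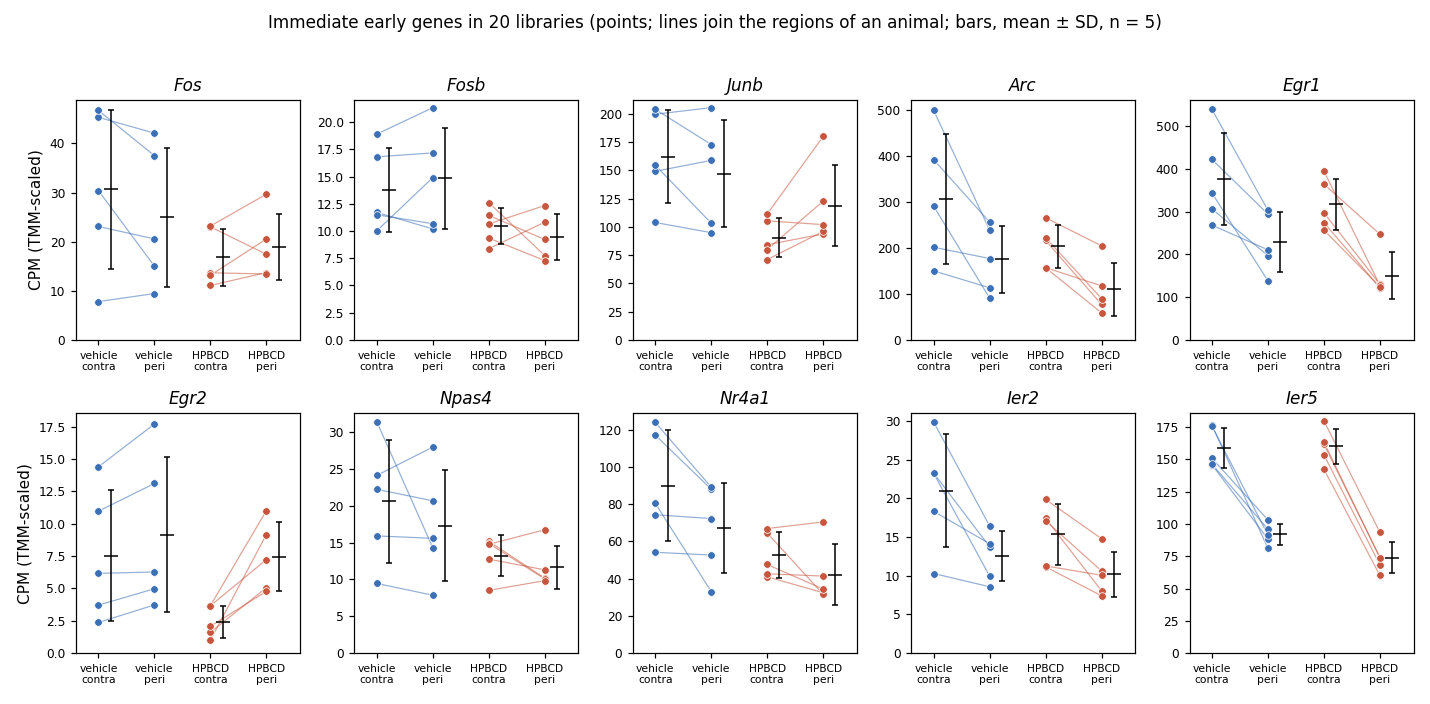
Level of each of the 10 genes in the 20 libraries (y axis, TMM-scaled CPM, starting at 0) for contralateral (contra) and peri-infarct (peri) tissue of vehicle (blue) and HPBCD (red) mice. Points are libraries, lines join the regions of a mouse and black bars give the mean ± SD (n = 5); *Ier5* falls from 159 to 91.9 CPM with vehicle and from 160.1 to 74.0 CPM with HPBCD with no overlap, and *Egr2* rises in every mouse.

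The first comparison set the peri-infarct region against contralateral tissue in mice given vehicle. *Ier5* and *Egr1* were lower beside the infarct, and the other 8 members did not pass the threshold. Thus 2 of 10 members were called, both lower, where 20.2% of 15801 genes were called, 9.7% lower and 10.5% higher. The median log2 fold change of the members was -0.38, against 0.015 over all genes tested.

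*Ier5* had 146, 151, 177, 146 and 176 CPM in vehicle contralateral libraries 1 to 5, and 88.2, 103, 81.0, 95.9 and 91.4 CPM in the peri-infarct libraries of the same mice. Every peri-infarct library was below every contralateral one, as for 6.7% of all genes in this direction. The log2 fold change was -0.80 (SE 0.084, edgeR adjusted p = 0.00115), and *Ier5* was called in 19 of 19 alternative fits.

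*Egr1*, a zinc finger transcription factor widely used as a mark of active neurons, had 306, 269, 344, 422 and 539 CPM in contralateral and 197, 211, 138, 294 and 303 CPM in peri-infarct libraries. It was lower beside the infarct in each of the 5 mice, but the groups overlapped, since mice 4 and 5 were high in both regions. The log2 fold change was -0.73 (SE 0.22, edgeR adjusted p = 0.0389). This call was lost in 6 of the 10 fits that left out 1 library, namely peri-infarct replicates 1, 2 and 3 and contralateral replicates 3, 4 and 5 (adjusted p = 0.0635 to 0.12), and without the 3 libraries that stood apart by region markers (adjusted p = 0.0901).

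*Ier2*, which encodes a nuclear protein, and *Arc* were also lower in the peri-infarct library of each of the 5 mice, without passing the threshold. *Ier2* went from 10.3, 23.3, 23.2, 18.3 and 29.9 CPM to 8.57, 13.7, 9.94, 14.1 and 16.4 CPM, or -0.75 in log2 terms (SE 0.25, edgeR adjusted p = 0.0539). *Arc* went from 149.995, 201, 291, 392 and 499 CPM to 113, 177, 91.0, 256 and 239 CPM, or -0.82 in log2 terms (SE 0.35, edgeR adjusted p = 0.114). Mouse 1, whose contralateral library stood apart by striatal markers, was lowest for both genes in contralateral tissue. With the mouse as a block both were called (*Ier2* adjusted p = 0.0158, *Arc* adjusted p = 0.0291), which made 4 members called, and *Ier2* was called in 7 of 19 alternative fits in all.

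The remaining 6 members were not called in this fit, which does not use the pairing of regions within mice. They were not called with the mouse as a block either. *Nr4a1* was lower beside the infarct in each of the 5 mice, at -1.28 to -0.04 in log2 terms. *Fos* had a log2 fold change of -0.32 (SE 0.47), *Nr4a1* of -0.44 (SE 0.28), *Npas4* of -0.27 (SE 0.34), *Junb* of -0.16 (SE 0.23), *Fosb* of 0.09 (SE 0.23) and *Egr2* of 0.27 (SE 0.52), with edgeR adjusted p-values of 0.28 to 0.808. *Egr2*, a zinc finger factor that also drives myelination in Schwann cells, was nevertheless higher beside the infarct in each of the 5 mice. It had 2.36, 3.70, 6.16, 14.4 and 10.97 CPM in contralateral and 3.72, 4.97, 6.27, 17.7 and 13.1 CPM in peri-infarct libraries. Mice 4 and 5 were the high ones in both hemispheres.

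In mice given HPBCD the same regions were compared, and 5 of 10 members were called. *Ier5*, *Egr1*, *Arc* and *Ier2* were lower and *Egr2* was higher in the peri-infarct region. Markers of other tissue moved in the same comparison. All 10 striatal, 6 oligodendrocyte, 5 macrophage and 3 ependymal markers were called higher beside the infarct, with median log2 fold changes of 2.79, 1.18, 3.3 and 8.16, and all 10 pan-neuronal markers were called lower (median -1.03). Their part in the members' values was not tested. Over all 16047 genes 54.6% were called, 24.3% lower and 30.3% higher, so the members' share was close to that of all genes. Their median log2 fold change was -0.255, against 0.032 over all genes.

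*Ier5* went from 162, 142, 153, 163 and 179.8 CPM to 74.0, 60.1, 68.3, 73.9 and 93.5 CPM, with no overlap, or -1.12 in log2 terms (SE 0.11, edgeR adjusted p = 3.99e-06). *Egr1* went from 274, 297, 395, 257 and 364 CPM to 122, 130.1, 127, 124 and 247 CPM. The groups of *Egr1* did not overlap either, although replicate 5 lay well above the other 4 peri-infarct libraries, and its log2 fold change was -1.08 (SE 0.20, edgeR adjusted p = 0.000593). Among all genes, 18.3% were lower and 24.3% higher in the peri-infarct region with no overlap. Both genes were called in 19 of 19 alternative fits.

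*Arc* had 157, 157, 216, 222 and 266 CPM in contralateral and 58.8, 117, 77.2, 89.8 and 204 CPM in peri-infarct libraries. The highest peri-infarct library, replicate 5, lay among the contralateral ones, and the log2 fold change was -0.89 (SE 0.29, edgeR adjusted p = 0.0183). *Arc* was called in 19 of 19 alternative fits. *Ier2* went from 17.4, 11.1, 17.1, 11.3 and 19.8 CPM to 8.03, 7.40, 10.6, 10.05 and 14.8 CPM, or -0.60 in log2 terms (SE 0.21, edgeR adjusted p = 0.0266). The call of *Ier2* was lost in 5 of 10 fits that left out 1 library (peri-infarct replicates 1 and 2, contralateral replicates 1, 3 and 5), with limma voom (adjusted p = 0.11), with all 4 groups in 1 fit (adjusted p = 0.0508) and without the 3 libraries that stood apart (adjusted p = 0.0537).

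*Egr2* was the member that was higher beside the infarct. It had 1.60, 2.07, 3.65, 0.989 and 3.66 CPM in HPBCD contralateral libraries, and 5.05, 4.76, 7.22, 9.16 and 11.01 CPM in the peri-infarct libraries of the same mice. The groups did not overlap, and each mouse was at least 0.96 higher on the log2 scale beside the infarct. The log2 fold change was 1.63 (SE 0.34, edgeR adjusted p = 0.0013), and it was 1.43 to 1.82 and called in 19 of 19 alternative fits. The HPBCD contralateral libraries were the lowest of the 4 groups for this gene, at 2.39 ± 1.22 CPM, against 7.52 ± 5.06 in vehicle contralateral, 9.16 ± 6.00 in vehicle peri-infarct and 7.44 ± 2.68 CPM in the HPBCD peri-infarct group (mean ± SD of 5 libraries).

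*Junb* was higher beside the infarct in 4 of 5 HPBCD mice, at 0.39 in log2 terms (SE 0.18, edgeR adjusted p = 0.0847), and passed with limma voom and with the mouse as a block (adjusted p = 0.0289), which made 6 members called. Exons of *Junb* overlap those of the antioxidant gene *Prdx2* on the opposite strand over 173 bp, and the strand option of the counting is not given in the sources used here, so its counts are uncertain. *Prdx2* itself was at 145.1 ± 19.3 CPM in HPBCD contralateral and 122 ± 13.1 CPM in HPBCD peri-infarct libraries, in the opposite direction. The other 4 members had log2 fold changes of -0.32 (*Nr4a1*), -0.19 (*Npas4*), -0.14 (*Fosb*) and 0.17 (*Fos*), with edgeR adjusted p-values of 0.244 to 0.594. Without HPBCD peri-infarct replicate 5, *Nr4a1* was called lower (-0.60, adjusted p = 0.00904).

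**Figure D2:**
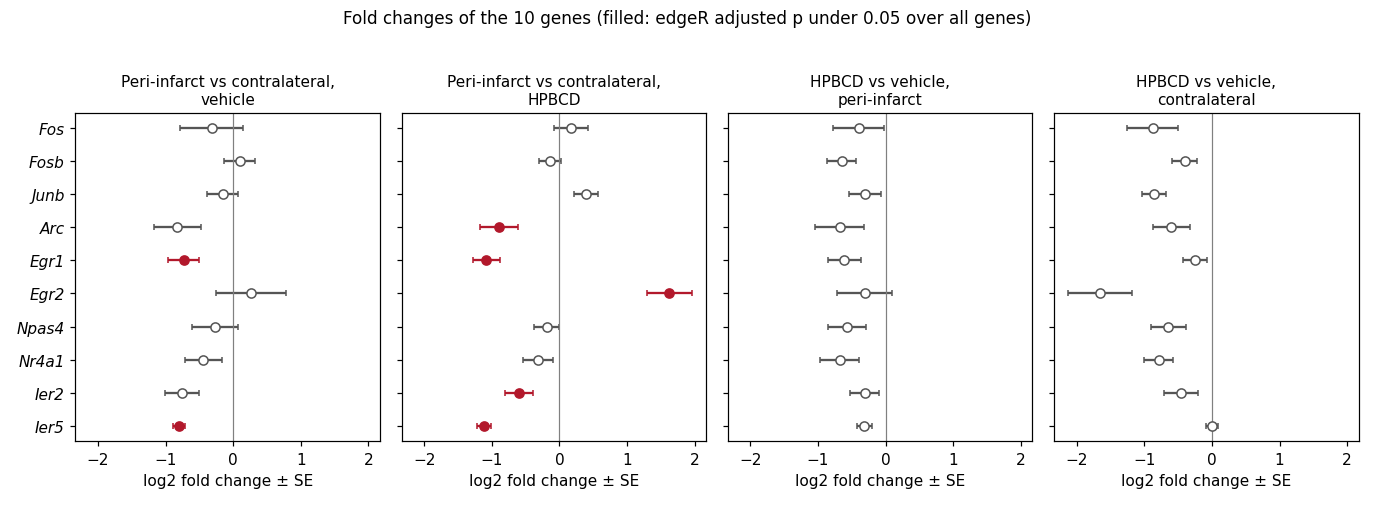
Log2 fold change ± SE (x axis) of the 10 genes (y axis) in the 4 comparisons of 2 groups, 5 libraries a group; filled red points passed an edgeR adjusted p of 0.05 over all genes. In the 2 region panels *Egr1* and *Ier5* are filled and below 0, *Egr2* is filled and above 0 with HPBCD at 1.63, and in the 2 treatment panels no point is filled while 19 of 20 lie below 0.

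**Figure D3:**
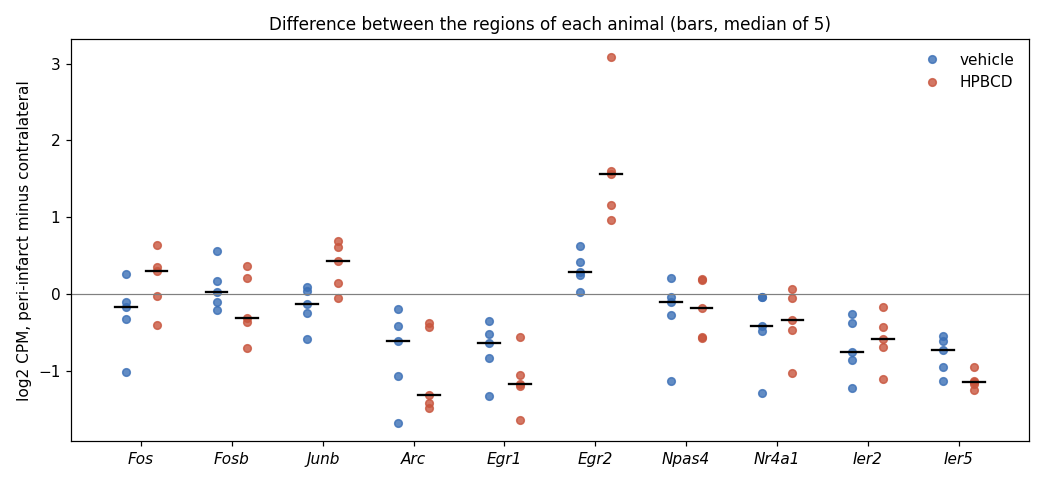
Log2 CPM of the peri-infarct library minus that of the contralateral library of the same mouse (y axis) for each gene (x axis), 5 mice with vehicle (blue) and 5 with HPBCD (red), with the median as a bar. The 10 mice all lie below 0 for *Arc*, *Egr1*, *Ier2* and *Ier5* and all above 0 for *Egr2*.

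Mouse by mouse, 5 members pointed one way in all 10 animals. *Arc*, *Egr1*, *Ier2* and *Ier5* were lower, and *Egr2* higher, in the peri-infarct library of 5 of 5 vehicle and 5 of 5 HPBCD mice, where 12.2% of genes were lower and 12.1% higher in all 10. For *Ier5* the difference on the log2 scale was -1.12 to -0.55 with vehicle and -1.24 to -0.94 with HPBCD. For *Egr2* it was 0.025 to 0.63 with vehicle and 0.96 to 3.08 with HPBCD, with no overlap, as for 5.57% of 16758 genes in this direction. *Nr4a1* was lower in 9 of 10 mice, and *Fos*, *Fosb*, *Junb* and *Npas4* were mixed. These are counts of mice, with no test beyond the fits above.

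Whether the region difference depended on treatment was tested as an interaction over the 20 libraries. None of the 10 members was called by edgeR, where 9.41% of 16758 genes were called, 5.03% in the positive and 4.38% in the negative direction. At an unadjusted p under 0.05 there was 1 member, *Ier5*, at -0.32 (SE 0.14, edgeR adjusted p = 0.144), where 28.9% of genes had such a p. *Egr2* had the interaction farthest from 0, at 1.35 (SE 0.68, edgeR adjusted p = 0.195). It passed in 1 of 28 alternative fits, by edgeR with the replicate number as a block (1.33, adjusted p = 0.0299). Between treatments that number is only a name, so this block also joined different mice. DESeq2 and limma voom also called 0 members. *Junb* was at 0.54 (SE 0.32, edgeR adjusted p = 0.269), and the other members at -0.36 to 0.47.

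The next comparison set peri-infarct libraries labelled HPBCD against those labelled vehicle. By edgeR 0 of 10 members were called, where 21.4% of 16224 genes were called, 12.4% higher and 9% lower. Under the labels, whose assignment is in doubt as described above, all 10 log2 fold changes were below 0, as were those of 48.5% of all genes, and the members' median was -0.49 against 0.014 over all genes. The 10 pan-neuronal genes were also all below 0 here, with 9 called lower and a median of -0.68. Their part in the members' values was not tested. At an unadjusted p under 0.05 there were 4 members, where 39.2% of all genes had such a p. Since members rise and fall together across libraries, as described below, their signs are not independent of each other.

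The 4 were *Fosb*, *Egr1*, *Nr4a1* and *Ier5*. *Fosb*, whose stable splice form builds up with repeated stimulation, had 10.2, 14.9, 10.7, 21.3 and 17.2 CPM with vehicle and 10.8, 9.23, 7.75, 7.29 and 12.3 CPM with HPBCD. Its groups overlapped through vehicle replicates 1 and 3, and its log2 fold change was -0.65 (SE 0.22, edgeR adjusted p = 0.0535). *Egr1* was at -0.61 (SE 0.25, edgeR adjusted p = 0.0956), *Nr4a1* at -0.68 (SE 0.29, edgeR adjusted p = 0.108) and *Ier5* at -0.32 (SE 0.11, edgeR adjusted p = 0.0585). These values sat near the threshold and moved with the fit: DESeq2 and the fit of all 4 groups called *Fosb* and *Ier5*, RLE factors called *Fosb*, and limma voom called 0. The count was 4 without vehicle peri-infarct replicate 3, 3 without HPBCD peri-infarct replicate 5, and 0 in the other 8 fits that left out 1 library and without the 3 libraries that stood apart.

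In vehicle peri-infarct libraries 1 to 5, *Nr4a1*, a nuclear receptor that needs no known ligand, had 52.7, 72.3, 33.0, 88.0 and 89.2 CPM. In those labelled HPBCD it had 32.4, 41.4, 31.6, 34.4 and 70.4 CPM. Replicate 5 was the high HPBCD library for this gene and for the other 9 members too. *Arc* was at -0.68 (SE 0.36), *Npas4* at -0.58 (SE 0.28), *Fos* at -0.40 (SE 0.37), *Junb* at -0.31 (SE 0.24), *Ier2* at -0.31 (SE 0.22) and *Egr2* at -0.31 (SE 0.41), with edgeR adjusted p-values of 0.154 to 0.601.

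The same doubt about the labels applies in contralateral tissue, where no gene of 15469 was called between treatments by edgeR, so 0% of genes and 0 of 10 members passed. At an unadjusted p under 0.05 there were 7 members, *Fos*, *Fosb*, *Junb*, *Arc*, *Egr2*, *Npas4* and *Nr4a1*, each lower in libraries labelled HPBCD. Over all genes 7.91% had such a p in either direction. Since members rise and fall together across libraries, these 7 are not independent of each other. Log2 fold changes were below 0 for 9 of 10 members and for 52.1% of all genes, and the members' median was -0.62 against -0.0073 over all genes. Both comparisons between treatments use different libraries, but of the same 10 mice.

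*Junb* had the smallest p of the members. It had 104, 149, 155, 199.6 and 204 CPM in vehicle and 84.2, 71.0, 105, 79.9 and 111 CPM in HPBCD contralateral libraries, so that only vehicle replicate 1 reached into the HPBCD range. Its log2 fold change was -0.85 (SE 0.18, edgeR unadjusted p = 0.00031, adjusted p = 0.405). *Egr2* was at -1.66 (SE 0.47, edgeR adjusted p = 0.503), *Fos* at -0.88 (SE 0.38, edgeR adjusted p = 0.598) and *Nr4a1* at -0.79 (SE 0.22, edgeR adjusted p = 0.483). *Npas4* was at -0.64, *Arc* at -0.60 and *Fosb* at -0.40. *Ier5* stood at 0.0011 (SE 0.085), with 159 ± 15.7 CPM in vehicle and 160.1 ± 13.8 CPM in HPBCD libraries. DESeq2 called 2 members here, *Junb* (adjusted p = 0.00205) and *Nr4a1* (adjusted p = 0.0489), among 53 genes in all. Limma voom and the other scaling factors called 0 members and 0 genes, and each of the 10 fits that left out 1 library called 0 members.

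*Fos*, the AP-1 subunit that is the classic mark of recent activity, had 7.80, 23.1, 30.4, 45.3 and 46.7 CPM in vehicle contralateral libraries 1 to 5, and 11.1, 13.7, 23.0, 13.2 and 23.2 CPM in those labelled HPBCD. The highest 3 vehicle libraries lay above all 5 HPBCD libraries, and the lowest vehicle library lay below them. *Npas4* had 9.45, 15.9, 31.4, 24.1 and 22.2 CPM with vehicle and 15.2, 12.8, 14.9, 8.52 and 14.8 CPM with HPBCD, with the ranges overlapping through vehicle replicate 1 alone. In peri-infarct tissue *Fos* had 9.43, 20.6, 15.0, 42.1 and 37.5 CPM with vehicle and 13.7, 13.4, 17.4, 20.5 and 29.7 CPM with HPBCD, and the HPBCD values lay within the vehicle range.

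Vehicle contralateral replicate 1, the contralateral library that stood apart by striatal markers, was the lowest of its group for 8 of the 10 members. *Fos* there was 7.80 CPM against 23.1 to 46.7 CPM in the other 4 libraries, and *Npas4*, a factor that builds inhibitory synapses onto active neurons, was 9.45 against 15.9 to 31.4 CPM. Without the 3 libraries that stood apart 0 members were called between treatments in contralateral tissue, as with all libraries. Leaving out this library alone gave the lowest log2 fold change of the 10 such fits for *Egr2* (-1.88), *Fos* (-1.12), *Junb* (-0.976) and *Nr4a1* (-0.923). The same held for *Npas4* (-0.825), *Arc* (-0.772) and *Ier2* (-0.631), but not for *Fosb*, *Egr1* and *Ier5*. The part of the striatal tissue in these values was not tested.

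Members rose and fell together within the groups. After the group mean was taken from each log2 CPM value, 45 of 45 pairs of members had a Pearson r above 0 over the 20 libraries, from 0.31 to 0.94 with a median of 0.72. The closest pair was *Arc* with *Nr4a1* (r = 0.94), followed by *Egr1* with *Nr4a1* and *Fos* with *Junb* (r = 0.92 each). *Ier5* was least tied to the others, with a median r of 0.56. The correlations carry no p-value, because the libraries share mice, dissections and depth.

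The size of this variation differed between members. The SD of group-centred log2 CPM was 0.84 for *Egr2* and 0.77 for *Fos*, 0.61 for *Arc* and 0.53 for *Npas4*, and 0.36 to 0.49 for *Nr4a1*, *Ier2*, *Egr1*, *Junb* and *Fosb*. *Ier5* had 0.16, below the median of 0.19 over 11794 genes with a mean of at least 5 CPM. In vehicle contralateral libraries *Fos* spanned 5.99-fold and *Egr2* 6.09-fold between the lowest and highest library, while *Ier5* spanned 1.21-fold. Without replicate 1, which stood apart by striatal markers, the spans were 2.02-fold for *Fos*, 3.89-fold for *Egr2* and 1.21-fold for *Ier5*.

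Libraries were high or low for most members at once. HPBCD peri-infarct replicate 5 was the highest of its group for 10 of 10 members, vehicle peri-infarct replicate 4 and vehicle contralateral replicate 5 for 6 each, and HPBCD contralateral replicate 5 for 7. Lowest were vehicle contralateral replicate 1 for 8 members and vehicle peri-infarct replicate 1 for 6. Both are of the same mouse and are among the 3 libraries that stood apart by region markers. HPBCD peri-infarct replicate 5 was also the highest of its group for the summed striatal list (2315 CPM, against 789 to 2272 CPM), and the part of this in its values was not tested.

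**Figure D4:**
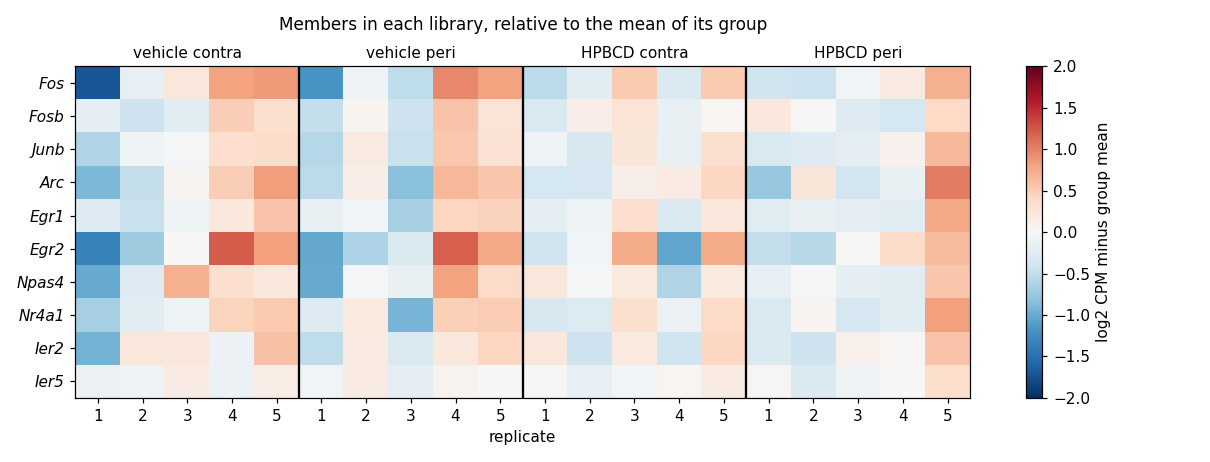
Log2 CPM of each gene (rows) in each library (columns, replicates 1 to 5 of the 4 groups) minus the mean of its group; red is above and blue below the group mean. Columns are largely of one colour, as in vehicle contralateral replicate 1 (blue) and HPBCD peri-infarct replicate 5 (red), and the *Ier5* row is pale throughout with an SD of 0.16.

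The 2 hemispheres of a mouse resembled each other in these genes. For the mean of the 10 members, the deviation of the peri-infarct library from its group correlated with that of the contralateral library at r = 0.735 (Pearson) and rho = 0.612 (Spearman) over 10 mice, and r was 0.57 without the 2 mice farthest from the median. Within treatments r was 0.786 with vehicle and 0.62 with HPBCD, over 5 mice each. Vehicle mouse 1, both of whose libraries stood apart by region markers, is among them. *Fos* had the highest r of the members at 0.848, followed by *Egr2* (0.754) and *Junb* (0.75), and *Ier5* the lowest at 0.364. Single genes split widely by treatment, with r = 0.982 for vehicle and 0.206 for HPBCD in *Egr2*, and -0.566 and 0.99 in *Ier5*. Without the 2 farthest mice r was 0.679 for *Fos*, -0.00165 for *Fosb* and 0.0582 for *Npas4*. The median over members was 0.606, against a median of 0.18 over 11794 genes, of which 9% lay above the members' median. These values are descriptions over few mice.

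Genes outside the list were ranked by how closely they followed the mean of the members over the 20 libraries. Among 11784 genes the closest were *Dusp1* (r = 0.92), a phosphatase that switches MAP kinases off, *Btg2* (r = 0.90), an antiproliferative gene, *Egr4* (r = 0.87), another EGR factor, *Trib1* (r = 0.84), a pseudokinase, and *Midn* (r = 0.84). At the other end were *Ehd1* (r = -0.79), *Dbnl* (r = -0.73) and *Chst15* (r = -0.70).

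Levels were also set against a neuronal yardstick, the summed counts of the 10 pan-neuronal genes in place of the library total. On this scale the median log2 fold change of all genes beside the infarct was 0.54 in vehicle and 1.38 in HPBCD mice. In vehicle mice *Fosb* was higher (0.62, SE 0.22, edgeR adjusted p = 0.0267) and *Ier5* lower (-0.28, SE 0.094, edgeR adjusted p = 0.0178), where 68.1% of genes were called higher and 0.759% lower. *Egr1* and *Arc* were at -0.21 and -0.30 and not called.

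In HPBCD mice 7 of 10 members were higher per neuronal marker, against 92.4% of all genes. *Egr2* was at 3.02 (SE 0.43), *Junb* at 1.76, *Fos* at 1.54, *Fosb* at 1.16, *Npas4* at 1.14, *Nr4a1* at 0.99 and *Ier2* at 0.77. Of these, *Egr2*, *Junb* and *Fos* lay above the median of all genes on this scale. *Arc* (0.42), *Egr1* (0.24) and *Ier5* (0.25) were not called, and these 3 genes were the ones farthest below 0 per library total. Between treatments in the peri-infarct region no member was called on this scale, with log2 fold changes of -0.023 to 0.40, where 66.4% of genes were called higher and 0.105% lower.

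**Figure D5:**
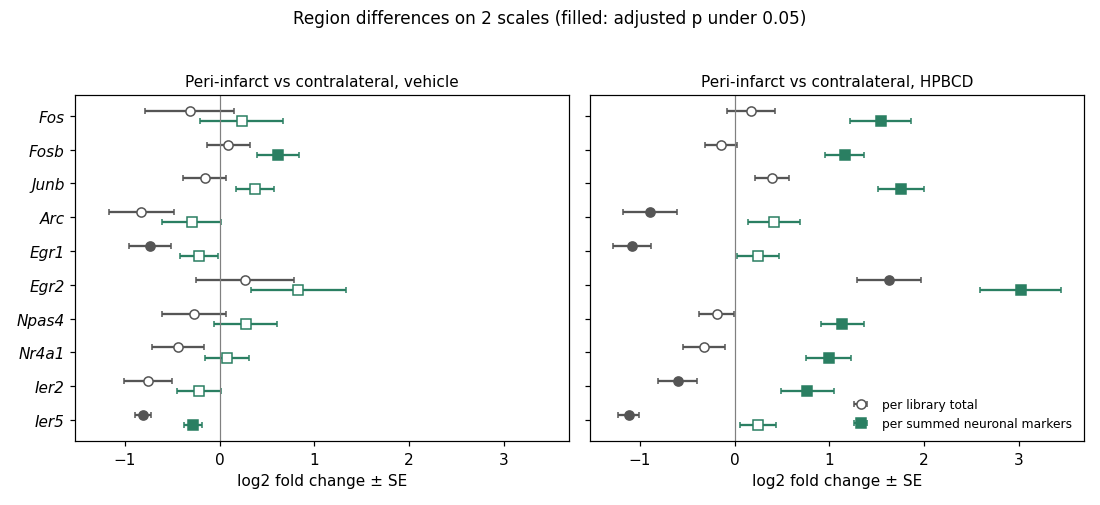
Log2 fold change ± SE (x axis) of the peri-infarct against the contralateral region for each gene (y axis) in vehicle (left) and HPBCD (right) mice, per library total (grey circles) and per summed counts of 10 pan-neuronal genes (green squares), with filled symbols for an adjusted p under 0.05. The green values lie to the right of the grey ones throughout, by about the shift of all genes (0.54 and 1.38).

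Relatives of the members in the FOS, JUN and ATF families (6 genes) included 3 that were called. *Jun* rose beside the infarct from 44.7 ± 6.50 to 64.0 ± 7.89 CPM with vehicle (log2 fold change 0.51, edgeR adjusted p = 0.00995) and from 47.8 ± 4.62 to 69.7 ± 9.76 CPM with HPBCD (0.54, edgeR adjusted p = 0.000645). *Atf3*, a stress-induced factor of injured neurons and glia, rose by 2.06 with vehicle (edgeR adjusted p = 0.0148) and by 3.52 with HPBCD (edgeR adjusted p = 8.92e-06). *Batf*, an AP-1 factor of immune cells, rose by 3.33 beside the infarct with HPBCD and was 1.84 higher in HPBCD than in vehicle peri-infarct libraries (edgeR adjusted p = 0.0128). In total 2 of 5 tested were called higher with vehicle (10.5% of all genes), 3 of 6 with HPBCD (30.3%) and 1 of 6 between treatments (12.4%), and 0 were called lower. Of the 6 other EGR, NR4A and NAB genes, 0 were called with vehicle, where 20.2% of all genes were called. With HPBCD 1 was called lower, *Nr4a2* (-0.92, edgeR adjusted p = 0.00647), against 24.3% of all genes. *Nab1*, a corepressor of EGR factors, was the 1 called higher (0.28, edgeR adjusted p = 0.0358), against 30.3% of all genes.

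Other rapid primary response genes (26 genes) were mixed. Beside the infarct 3 were called higher and 2 lower with vehicle, near the 10.5% and 9.7% of all genes. With HPBCD 11 were called higher and 3 lower, against 30.3% and 24.3% of all genes. *Ccn1*, a matrix protein of wounded tissue, rose by 2.20, *Maff* by 2.10 and *Zfp36*, which destabilizes cytokine mRNAs, by 1.91 with HPBCD (edgeR adjusted p = 6.21e-07, 4.11e-05 and 1.29e-05), while *Dusp5* (-0.71), *Ier5l* (-0.45) and *Klf10* (-0.35) were lower. With vehicle, *Zfp36* (1.11), *Myc* (0.91) and *Gadd45g* (0.73) were higher, and *Dusp5* (-0.80) and *Arl4d* (-0.59) lower. Between treatments in the peri-infarct region 4 were called higher in libraries labelled HPBCD (12.4% of all genes), among them the endothelial factors *Klf4* (1.16) and *Klf2* (0.81) and *Maff* (0.95), and 0 lower. The interaction was called for 3, all positive, *Ccn1* (1.39), *Klf4* (1.13) and *Gadd45b* (0.78). Over all genes 5.03% were called in the positive and 4.38% in the negative direction. Fibroblast markers moved in the same libraries, with a summed level over 4 genes of 42.0 to 227 CPM in vehicle and 261 to 850 CPM in HPBCD peri-infarct libraries, and their part in these values was not tested.

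Genes of the later activity response (14 genes), most of them neuronal secreted or synaptic proteins, were called lower more often than higher beside the infarct. With vehicle 5 were called lower and 0 higher, against 9.7% and 10.5% of all genes, and 5 of the 14 had a log2 fold change above 0. Those called lower were led by *Gpr3* (-0.79), *Rgs4* (-0.70) and *Nrn1* (-0.53). With HPBCD 10 were called lower and 1 higher, against 24.3% and 30.3% of all genes, led by *Nrn1* (-1.77), a membrane protein of growing neurites, *Rgs4* (-1.29), which shortens G protein signals, and *Gpr3* (-1.22), and the 1 higher was *Rgs2* (0.33). Between treatments in the peri-infarct region, with the doubt about the labels, 4 were called lower in libraries labelled HPBCD (9% of all genes). These were led by *Nrn1* (-1.11), the neuropeptide precursor *Vgf* (-0.98) and the pentraxin *Nptx2* (-0.97). The interaction was called for *Nrn1* (-1.26) and *Nptx2* (-0.90), where 4.38% of all genes were called in the negative and 5.03% in the positive direction. The pan-neuronal list moved in the same comparisons, with 4 of 10 genes called lower with vehicle, 10 of 10 with HPBCD and 9 of 10 between treatments, and its part in these values was not tested.

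Upstream factors, kinases and receptors (26 genes) were split. With vehicle 2 were called higher, *Mapk3* (ERK1, 0.62) and the CREB coactivator *Crtc3* (0.54). The NMDA receptor subunits *Grin2a* (-0.41) and *Grin1* (-0.36) were the 2 called lower. Over all genes 10.5% were called higher and 9.7% lower. With HPBCD 6 were called higher, led by the SRF partner *Elk3* (1.14), *Crtc3* (0.86) and *Mapk3* (0.75), and 5 lower, led by the neuronal factor *Mef2c* (-1.23), *Grin1* (-0.83) and *Camk2a* (-0.56). Both counts of 26 were below the 30.3% and 24.3% of all genes. Between treatments in the peri-infarct region *Mef2c* (-0.89), the SRF coactivator *Mrtfb* (-0.50) and *Mef2d* (-0.47) led the 4 that were lower in libraries labelled HPBCD. In this comparison 0 of the list were higher, where 9% of all genes were called lower and 12.4% higher. The interaction was called for *Mef2c* (-1.06) and *Mrtfb* (-0.48), where 4.38% of all genes were called in the negative and 5.03% in the positive direction. *Creb1* and *Srf*, the factors that bind the CRE and the CArG box, were not called in any of the 5 comparisons, with log2 fold changes of -0.10 to 0.13 and -0.16 to 0.25.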

How the data were processed

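RNA was taken from peri-infarct and contralateral tissue (RIN above 8) and sequenced from TruSeq stranded mRNA libraries. Per the submitters' processing notes, the authors used bcl2fastq 2.19, Trimmomatic 0.32, STAR 2.5.2b, HTSeq and DESeq2. The deposited values are raw counts per Ensembl gene, 1 table a library. The HTSeq version, strand option and annotation release are not given in the sources used here. The 5 lines that name no gene held 25.1 to 40.1% of read pairs and were left out.

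Counts were tested with edgeR 4.0.16 (R 4.3.3) by the quasi-likelihood F test, with TMM factors, filterByExpr and Benjamini-Hochberg adjustment over all genes tested (threshold 0.05). The SE is the log2 fold change divided by the square root of F. Each region or treatment comparison used its 10 libraries and the interaction all 20. These main fits did not use the pairing of regions within mice. DESeq2 1.42.0, limma 3.58.1 (voom with quality weights), other factors, filters and fits were alternatives, and the fits were tested on simulated data. A floor of 3 counts covers counting error only.

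Libraries with the same number within a treatment share an animal identifier in the deposited names, so the number pairs them there. Their deviations from the group means correlated with a mean r of 0.0876 over 10 pairs (-0.11 to 0.301, 16758 genes). Between treatments the number is only a name. Where nothing else says that samples are separate animals, p-values measure the spread between these samples.

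The members and all lists were chosen with earlier results of these data known. Named beside the members were, per list, comparison and direction, up to 3 called genes with the largest change, the genes most and least like the members' mean, an overlapping gene, and *Creb1* and *Srf*, added after their values were seen.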

Additional observations from a re-analysis of the deposited data

Results flagged for a closer look

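The highest library stood far from the rest in 3 of 40 sets of 5 libraries (10 genes in 4 groups), where its gap to the nearest library exceeded 0.71 of the range of the group. Chance alone gives about 1 such set in 20. All 3 were HPBCD peri-infarct replicate 5. *Egr1* was at 247 CPM there, with the next library at 130.1 CPM and a gap of 0.936 of the range. *Npas4* was at 16.7 CPM, with a gap of 0.787. *Nr4a1* was at 70.4 CPM, with a gap of 0.749. The same library was the highest of its group for the other 7 members, so the 3 sets are not independent of each other. By edgeR without a block no member passed the test of a difference between treatments in its region effect. With the replicate number as a block *Egr2* did (1.33, edgeR adjusted p = 0.0299), but that block also joined different mice across treatments.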

How the results depend on the processing

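The 5 comparisons were refitted with other factors, filters and tools and with each library left out. They were also refitted without the 3 libraries that stood apart by region markers, an alternative chosen after seeing the data. That alternative kept the striatal signal of the other peri-infarct libraries. Of the member values, 173 of 190, 178 of 190, 174 of 190, 178 of 190 and 263 of 280 kept their direction and side of the threshold (region with vehicle, region with HPBCD, treatment in peri-infarct, treatment in contralateral tissue, interaction). With the replicate number as a block, 4 members were called for region with vehicle, 3 (*Arc*, *Egr1*, *Nr4a1*) for treatment in peri-infarct tissue, where the number pairs no animals, and 1 (*Egr2*) for the interaction. In the interaction fit the number also joined mice of different treatments. For treatment in peri-infarct tissue the count was also 1 with RLE factors and 2 with DESeq2 and with all 4 groups in 1 fit. In contralateral tissue it was 2 with DESeq2, which called 53 genes where edgeR called 0, against 2 without a filter on low counts and 1 with the block. The cause was not tested.

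Leaving out 1 library gave 1 to 3 members for region with vehicle, 4 to 6 for region with HPBCD, 0 to 4 for treatment in peri-infarct tissue, and 0 for treatment in contralateral tissue and for the interaction. Over all genes these fits called 2000 to 3920, 8043 to 9382, 823 to 5339, 0 and 529 to 3121. Limma voom called 5065, 9437, 6012, 0 and 4110 genes, DESeq2 4010, 9684, 4719, 53 and 2504. The sign of *Ier5* in contralateral tissue, near 0, turned with upper-quartile factors (-0.00602), limma voom (-0.0779), no filter (-0.00358) and without the 3 libraries (-0.0277).

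Leaving out 1 library also turned signs of values that passed no threshold. Ranges were -0.0706 to 0.232 (*Fosb*) and -0.115 to 0.638 (*Egr2*) for region with vehicle, -0.0587 to 0.308 (*Fos*) for region with HPBCD, -0.504 to 0.068 (*Egr2*) for treatment in peri-infarct and -0.0455 to 0.0414 (*Ier5*) in contralateral tissue. For the interaction they were -0.427 to 0.121 (*Arc*), -0.137 to 0.336 (*Npas4*), -0.152 to 0.252 (*Nr4a1*) and -0.0191 to 0.316 (*Ier2*). Low counts limit *Egr2*, with 13 counts in its lowest library.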
